A study of Mus musculus with 14 samples.

Results

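The collagen genes of the mouse were examined in bulk RNA-seq libraries of plexiform neurofibromas (PNs) and control nerve tissue. They were taken as every gene in the count table whose symbol has the form of a collagen chain, *Col* with a type number, *a* and a chain number, which gave 44 of 24062 genes. By the structures they build, they comprised 11 fibril-forming genes, 6 of the basement membrane network (*Col4a1* to *Col4a6*), 6 of the beaded filaments (*Col6a1* to *Col6a6*), 9 fibril-associated collagens with interrupted triple helices (FACITs), 4 transmembrane collagens, 3 short-chain network genes, 2 multiplexins, 1 anchoring fibril gene (*Col7a1*), and 2 others (*Col26a1* and *Col28a1*).

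The control libraries came from dorsal root ganglia with nerves of mice labelled *Nf1*fl/fl (n = 3), which carry the floxed gene without Cre. The PN libraries came from neurofibromas of mice labelled DhhCre;*Nf1*fl/fl, in which the desert hedgehog promoter drives Cre in the Schwann cell lineage. The paper states that in this model only Schwann cells lose *Nf1*. Recombination by cell type was not measured in these libraries. Slow-growing PNs (n = 5) had altered in volume by less than 5 mm3 between MRI scans at 7 and 9 months of age, and fast-growing PNs (n = 6) had gained more than 35 mm3. All mice were given as of a mixed C57BL/6, I-129 and FVBN background and received no drug. The methods instead describe the DhhCre;*Nf1*fl/fl mice of the study as largely C57BL/6. The age at collection is given as 9 months in the methods and as 7 months elsewhere. No source gives sex or batch per library, or states that libraries of a group are separate animals beyond their mouse numbers.

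Collagens are triple helices of 3 chains, folded in the endoplasmic reticulum, trimmed after secretion, and cross-linked. In peripheral nerve, fibroblasts, perineurial cells, and Schwann cells make them. Types I, III, and V form the fibrils of the endoneurium and epineurium, type IV forms the basal lamina around each Schwann cell and axon unit, and a collagen-rich matrix is a known feature of neurofibromas.

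Between 9596773 and 17594164 reads were counted on genes per library, and 3 counts, the floor used here, correspond to 0.171 to 0.313 counts per 1000000 counts on genes (CPM). *Nf1* itself lay between 129 and 227 CPM in controls and between 225 and 294 CPM in PNs, so that the whole-gene count does not show the loss in the Schwann cell lineage. Control libraries held more skeletal muscle and fat transcripts than PNs. The summed level of 15 muscle markers lay between 3856 and 15646 CPM in controls, between 31.0 and 3724 CPM in the slow-growing PNs, and between 76.3 and 2434 CPM in the fast-growing ones. The sum of 13 fat markers lay between 4205 and 6413, between 20.5 and 3404, and between 19.3 and 299.8 CPM, respectively. The sum of 8 fibroblast markers, none of them a collagen, lay between 1682 and 3199 CPM in controls, between 1446 and 4466 in the slow-growing PNs, and between 3438 and 7729 in the fast-growing ones. All 8 fibroblast markers, all 8 Schwann cell markers, and all 8 neuron markers had counts in every library, while *Hba-a1* and *Hbb-bt* of the erythroid list were at 0 throughout.

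**Figure D1:**
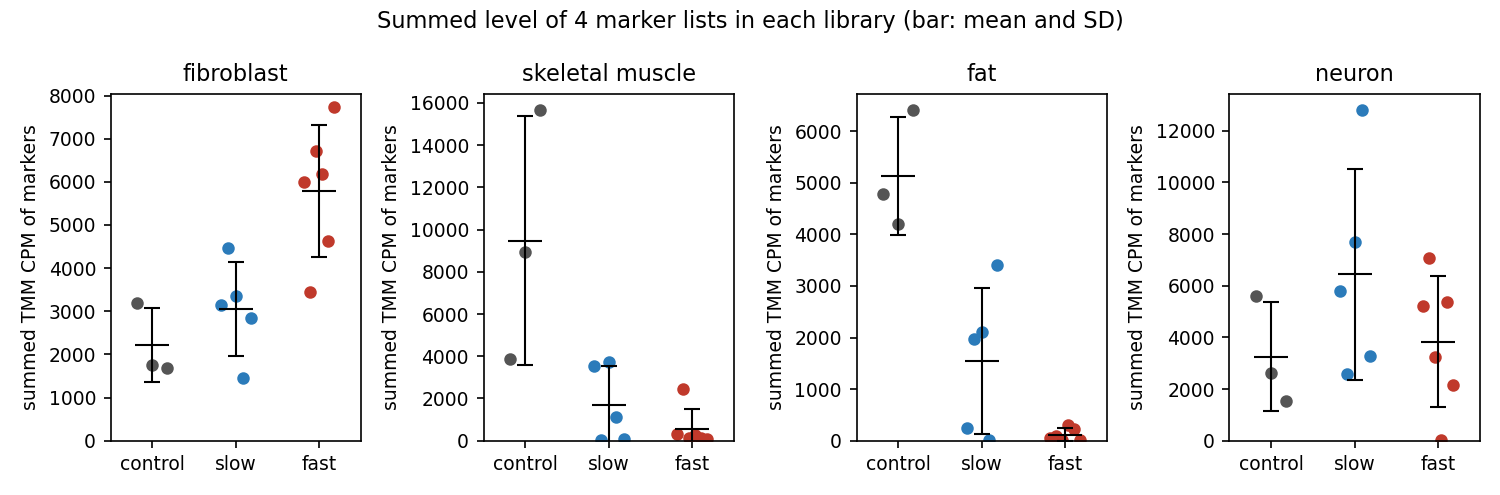
Summed level (y axis, TMM-normalized CPM) of 4 marker lists in each library, by group (x axis), with a bar for the mean and SD that is drawn from 0 upward only. Fat markers were above 4205 CPM in every control and at most 3404 CPM in every PN, and fibroblast markers were above 3438 CPM in every fast-growing PN.

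Reference sequence upstream of a few of these genes is shown first, for *Col28a1* and *Col8a1*, among the collagen genes furthest apart between fast- and slow-growing PNs, and for *Col11a1* and *Col3a1*, fibril-forming genes that were higher in fast-growing PNs than in controls. Each is the 250 bases before the RefSeq start (GRCm38.p6), written 5' to 3' on the strand of the gene, and no annotated exon lies in it. The windows are chr6:8192618-8192867 (minus strand) for *Col28a1*, chr16:57754738-57754987 (minus) for *Col8a1*, chr3:114030290-114030539 (plus) for *Col11a1*, and chr1:45311288-45311537 (plus) for *Col3a1*. Capitals mark exact matches, on either strand, to the TATA element TATAAA, the box named for its letters CCAAT, the GC box GGGCGG, or the AP-1 motif TGANTCA.
Col28a1: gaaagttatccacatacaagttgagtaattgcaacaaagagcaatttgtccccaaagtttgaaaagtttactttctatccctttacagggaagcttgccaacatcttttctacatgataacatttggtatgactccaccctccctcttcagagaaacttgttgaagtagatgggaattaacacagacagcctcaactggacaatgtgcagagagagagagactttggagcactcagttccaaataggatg
Col8a1: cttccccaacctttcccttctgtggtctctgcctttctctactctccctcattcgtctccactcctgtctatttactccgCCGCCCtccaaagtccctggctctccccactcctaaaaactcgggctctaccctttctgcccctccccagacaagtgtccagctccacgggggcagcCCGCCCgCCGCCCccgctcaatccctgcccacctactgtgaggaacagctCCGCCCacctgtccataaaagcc
Col11a1: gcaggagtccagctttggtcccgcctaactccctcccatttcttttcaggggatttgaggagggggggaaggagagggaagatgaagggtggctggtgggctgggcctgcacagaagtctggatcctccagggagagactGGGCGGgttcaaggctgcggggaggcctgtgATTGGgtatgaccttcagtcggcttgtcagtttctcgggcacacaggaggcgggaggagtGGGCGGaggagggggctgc
Col3a1: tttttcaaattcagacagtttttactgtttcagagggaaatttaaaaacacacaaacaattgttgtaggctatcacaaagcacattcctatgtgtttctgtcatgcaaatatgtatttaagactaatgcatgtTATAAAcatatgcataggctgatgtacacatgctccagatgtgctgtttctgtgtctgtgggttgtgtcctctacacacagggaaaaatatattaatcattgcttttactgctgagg

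The *Col28a1* window holds 0 matches, that of *Col8a1* holds 4 GC boxes, that of *Col11a1* holds 1 CCAAT and 2 GC boxes, and that of *Col3a1* holds 1 TATAAA. RefSeq promoters were at hand for 35 of the 44 genes (38 windows). Of these windows, 22 (57.9%) held GGGCGG, against 32.7% of all 32851 promoter windows of the same length. CCAAT was in 13 (34.2%, against 33.8%), TATAAA in 5 (13.2%, against 12.4%), and TGANTCA in 1 (2.63%, against 6.75%), the promoter of *Col6a1*. These shares are descriptions, and no match says only that those letters are not in the window. No entry was found for *Col1a1*, *Col2a1*, *Col4a3*, *Col5a2*, *Col9a3*, *Col12a1*, *Col14a1*, *Col22a1*, and *Col26a1*.

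Collagen genes took a larger share of the RNA in fast-growing PNs than in any other library. Their share was 2066 ± 537 CPM in controls (SD, n = 3), 2974 ± 1404 in the slow-growing PNs (n = 5), and 6988 ± 2526 in the fast-growing ones (n = 6). By library, the collagen share was 2598, 1524, and 2078 CPM in controls DRG3, DRG4, and DRG5. It was 3411, 4289, 2238, 900.0, and 4032 CPM in slow-growing PNs 1079, 1198A, 1202, 1203, and 1206, and ran from 4618 (1214) through a median of 6060.2 to 11657 (1191) in fast-growing PNs. Every fast-growing PN therefore lay above every control and every slow-growing PN, while the slow-growing PNs spread from below the lowest control to above the highest. In whole tissue, more collagen-making cells and more collagen RNA per cell cannot be told apart. The summed fibroblast marker level, most of it *Dcn*, moved with this share, and its part in it was not tested. The paper reports *Dcn* among the genes most raised in several Schwann cell populations of PNs. The sum is therefore not a measure of fibroblasts alone, and collagen divided by it is not collagen per fibroblast. The 8 markers did not go one way: 4 were called higher and 1 lower in fast-growing PNs against controls, and *Dpt*, at 52.0 to 82.7 CPM in controls, was at 0.614 to 35.7 CPM in fast-growing PNs. The summed collagen level divided by the summed fibroblast marker level was 0.982 ± 0.220 in controls, 0.952 ± 0.323 in the slow-growing PNs, and 1.23 ± 0.382 in the fast-growing ones, with overlapping ranges of 0.848 to 1.24, 0.673 to 1.47, and 0.904 to 1.74.

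**Figure D2:**
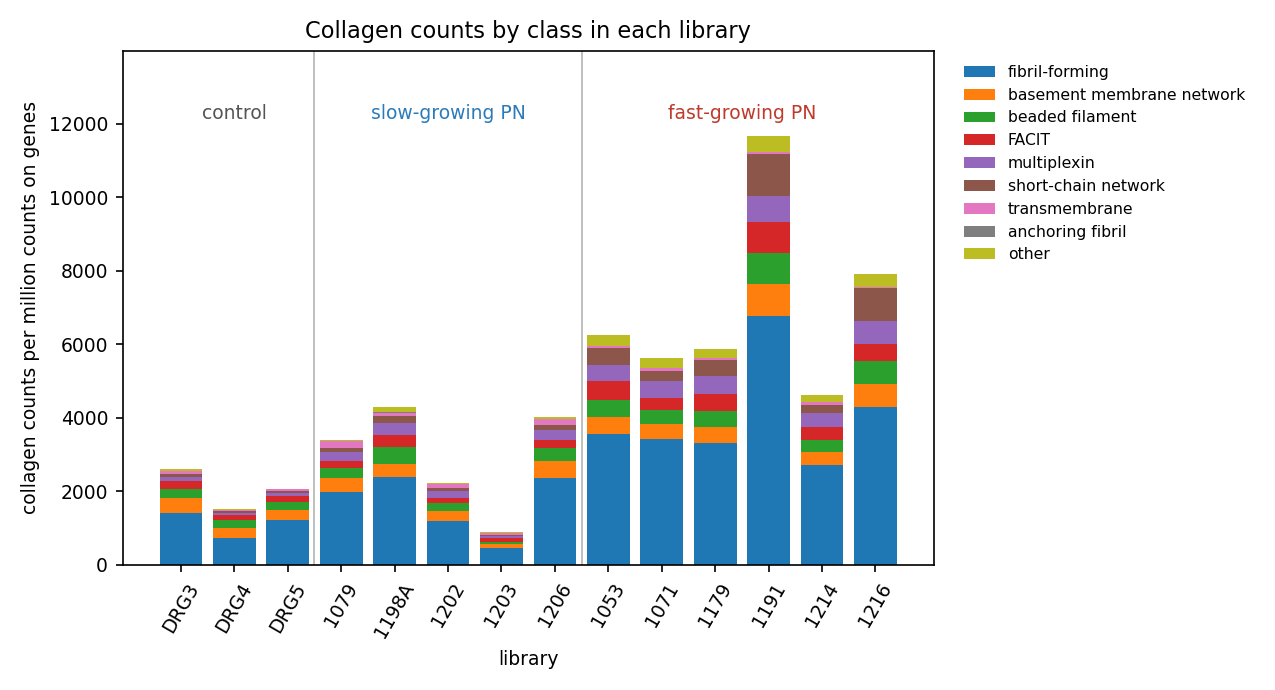
Summed collagen share (y axis, CPM) in each library (x axis), stacked by collagen class. The 6 fast-growing PNs reach 4618 to 11657, the 5 slow-growing PNs 900.0 to 4289, and the 3 controls 1524 to 2598.

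The make-up of the collagen counts also differed between the groups. Fibril-forming genes held about the same share of them everywhere, 53.5% ± 5.02 in controls, 55.6% ± 2.90 in the slow-growing PNs, and 57.7% ± 2.22 in the fast-growing ones. The type IV genes of the basement membrane held 13.1% to 17.3% in controls, 8.35% to 12.9% in the slow-growing PNs, and 7.19% to 7.91% in the fast-growing ones, ranges that do not overlap. The short-chain network genes, mostly *Col8a1*, held 2.45% to 2.68% in controls and 4.79% to 11.2% in fast-growing PNs, and the multiplexins 4.14% to 5.01% in controls against 6.03% to 8.45% over all PNs. Transmembrane collagens, mostly *Col23a1*, held 1.81% to 3.50% in controls, 2.17% to 5.46% in the slow-growing PNs, and 0.448% to 1.42% in the fast-growing ones. These shares are parts of a whole, so that one falls where another rises, and they are given without a test.

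**Figure D3:**
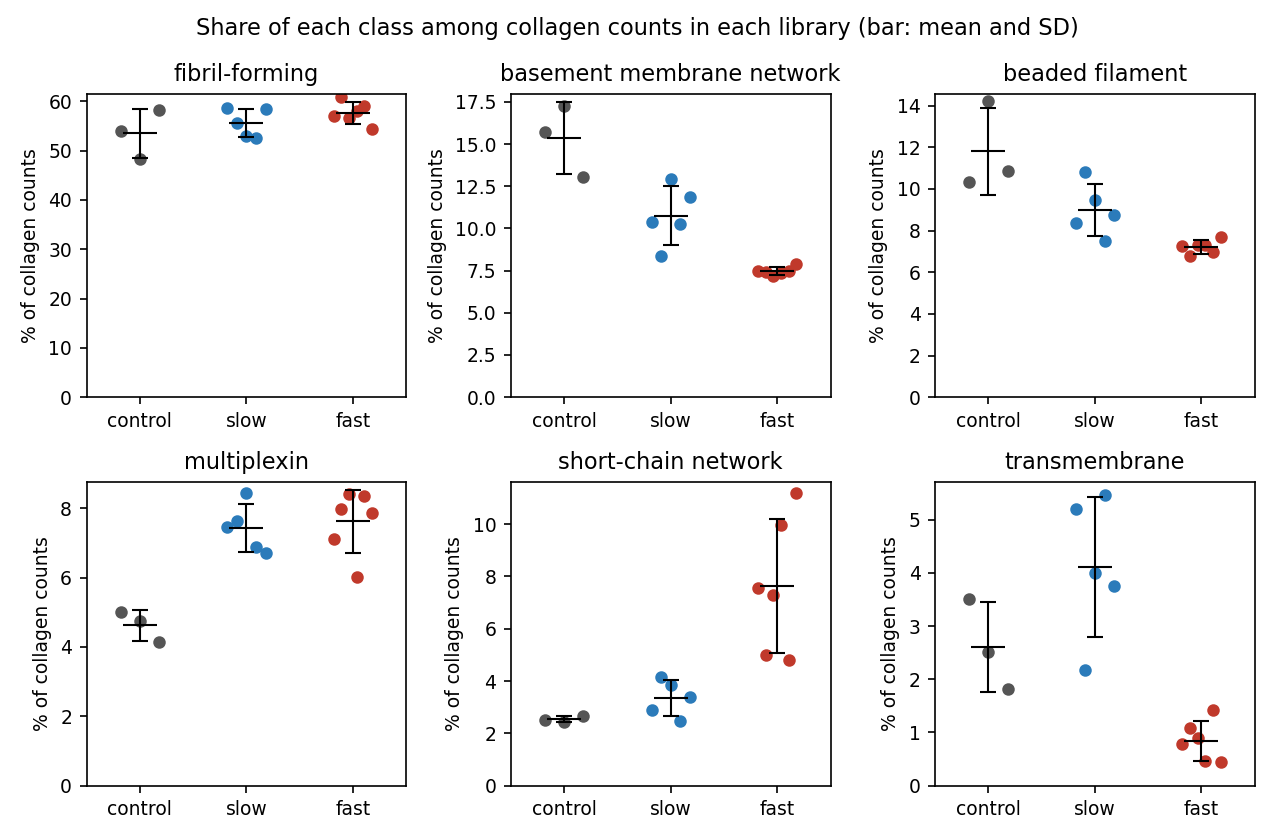
Share of 6 collagen classes among all collagen counts (y axis, percent) in each library, by group (x axis), with a bar for the mean and SD. The basement membrane share falls from 15.4% in controls to 10.8% and 7.47% in slow- and fast-growing PNs, and the short-chain share rises from 2.55% to 3.34% and 7.63%.

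Per kilobase of the longest annotated transcript, the highest mean levels in controls were those of *Col1a2* (73.6 CPM per kb), *Col3a1* (51.1), *Col1a1* (35.6), *Col4a1* (23.9), and *Col4a2* (20.2), with *Col8a1* at 8.76, *Col5a2* at 8.23, and *Col28a1* at 4.78. In slow-growing PNs the order began with *Col1a2* (93.97), *Col3a1* (75.6), *Col1a1* (44.4), *Col15a1* (31.0), and *Col4a1* (23.4). In fast-growing PNs it began with *Col1a2* (204), *Col3a1* (196), *Col8a1* (107.8), *Col1a1* (100.7), *Col5a2* (68.0), *Col15a1* (67.8), and *Col28a1* (65.1), ahead of *Col4a2* (37.6) and *Col4a1* (36.5). These orders are of group means, and neighbours in them were not tested against each other. *Col1a1* and *Col1a2*, which assemble into type I collagen with more of the first chain than of the second, stood at a ratio of per-kilobase levels of 0.466 ± 0.142 in controls, 0.442 ± 0.102 in the slow-growing PNs, and 0.493 ± 0.0379 in the fast-growing ones. For *Col5a1* over *Col5a2*, the chains of type V collagen that starts the fibrils, the ratio was 0.854 to 1.11 in controls, 0.795 to 1.33 in the slow-growing PNs, and 0.433 to 0.747 in the fast-growing ones. It was thus lower in every fast-growing PN than in any other library, and this ratio was picked after the values had been seen. The per-kilobase ratio of *Col4a1* to *Col4a2*, which share a promoter region head to head on chromosome 8 with starts 21 bp apart, was 1.17 to 1.21 in controls, 1.01 to 1.36 in the slow-growing PNs, and 0.890 to 1.02 in the fast-growing ones. At the low end, *Col9a1* and *Col13a1* did not pass the filter on low counts in any comparison, and *Col6a4*, *Col17a1*, and *Col22a1* missed it in some.

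In fast-growing PNs against controls, 8 of 11 fibril-forming genes were higher and 1 lower, 5 of 8 tested FACITs were higher and 1 lower, and both multiplexins were higher. None of the 6 type IV genes of the basement membrane passed edgeR's test. Of the 42 collagen genes that passed the filter, 21 passed as higher and 3 as lower in fast-growing PNs at a Benjamini-Hochberg adjusted p under 0.05 in edgeR's quasi-likelihood test, adjusted over all 16037 genes. Over all genes tested, 14.8% were higher and 16.7% lower, 31.4% in either direction. The median log2 fold change was 1.15 over the collagen genes and 0.02 over all genes tested. In 22 collagen genes every fast-growing PN lay above every control, and in 2 below, against 17.8% and 14.9% of all genes tested. Of the 22, only *Col7a1* was not called (log2 fold change 0.75 ± 0.28, edgeR adjusted p = 0.0665).

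Of the fibril-forming genes, *Col1a1*, which encodes the major chain of type I collagen, was at 247, 87.6, and 299 CPM in controls and at 381 to 875 CPM (median 571) in fast-growing PNs. The difference of 1.43 ± 0.41 on the log2 scale had an edgeR adjusted p of 0.0239 and was lost without control DRG4, the lowest of the 3. *Col3a1*, the type III chain found with type I in distensible tissue, was at 390.4, 207, and 255 CPM in controls and at 709.8 to 1831 CPM (median 986) in fast-growing PNs (log2 fold change 1.88 ± 0.34, edgeR adjusted p = 0.00298). *Col1a2* rose with a log2 fold change of 1.41 ± 0.32. No fast-growing PN overlapped with a control in these 3 genes.

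The minor fibril collagens, which nucleate fibrils and limit their width, included the genes of this class with the largest log2 fold changes, *Col5a2* and *Col11a1*. *Col5a2* was at 70.1, 42.2, and 51.2 CPM in controls and at 289 to 789 CPM (median 406) in fast-growing PNs (log2 fold change 2.99 ± 0.37, edgeR adjusted p = 0.000389). *Col11a1*, a type XI chain best known from cartilage, was at 13.98, 6.41, and 18.0 CPM in controls and at 58.1 to 134 CPM in fast-growing PNs (2.76 ± 0.40, edgeR adjusted p = 0.000878). In both genes the lowest fast-growing PN stood several fold above the highest control. *Col5a1* rose by 2.13 ± 0.38, *Col5a3*, a chain made by Schwann cells, by 1.87 ± 0.27, and *Col27a1* by 1.81 ± 0.18 on the log2 scale. *Col11a2* was the fibril-forming gene called lower, at 2.61 ± 1.68 CPM in controls and 0.904 ± 0.292 CPM in fast-growing PNs, and this call was lost in 7 of 9 fits that left out a library (without DRG3, DRG5, 1053, 1071, 1179, 1214, or 1216). *Col2a1*, the cartilage collagen (1.10 ± 0.52), and *Col24a1* (-0.05 ± 0.36) were not called. The 8 cartilage markers summed to 19.3 to 102.8 CPM in controls and 11.6 to 39.4 CPM in fast-growing PNs.

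Type IV collagen did not pass edgeR's test in any of its 6 genes. *Col4a1* was at 212, 126, and 138 CPM in controls and at 160.4 to 372 CPM (median 207) in fast-growing PNs, and the groups overlapped (0.55 ± 0.30, edgeR adjusted p = 0.192). *Col4a2*, its partner chain, had a log2 fold change of 0.84 ± 0.30 (adjusted p = 0.0563), and was called higher by DESeq2's Wald test (adjusted p = 0.0265) and without DRG3 or 1214. *Col4a3* and *Col4a6* had negative values, -1.17 ± 0.59 and -1.08 ± 0.43, and were called lower without 1191 and without 1179, respectively, *Col4a3* also by limma-voom (adjusted p = 0.0471). The endothelial markers, of cells that also lay down type IV collagen, were lower in 4 of 6 genes in fast-growing PNs than in controls.

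The type VI genes, whose products form beaded filaments next to the basal lamina, split. *Col6a1* was higher by 1.27 ± 0.30 and *Col6a3* by 1.46 ± 0.26 on the log2 scale (edgeR adjusted p = 0.00969 and 0.00276), and *Col6a2* was at 0.74 ± 0.33 (adjusted p = 0.118). *Col6a4*, *Col6a5*, and *Col6a6*, alternatives to the *Col6a3* chain that lie side by side on chromosome 9, had negative log2 fold changes of -2.31 ± 1.11, -1.76 ± 1.02, and -2.82 ± 0.75, of which *Col6a6* was called (adjusted p = 0.0179). *Col6a6* was at 2.66, 7.79, and 2.50 CPM in controls and at 0 to 1.28 CPM in fast-growing PNs, so it is a low gene, and its call was lost without control DRG4, the highest of the 3. *Col6a5* was at 43.5, 26.5, and 21.9 CPM in controls and at 1.71 to 5.51 CPM in 5 fast-growing PNs, with PN 1191 apart at 42.0 CPM.

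Outside these classes, the log2 fold changes above 3 were those of *Col16a1*, *Col28a1*, *Col8a1*, and *Col20a1*. *Col16a1*, a FACIT of fibril surfaces, was at 11.5, 5.86, and 5.63 CPM in controls and at 78.7 to 153 CPM (median 133) in fast-growing PNs, 3.97 ± 0.33 higher (edgeR adjusted p = 5.12e-05). *Col28a1*, a von Willebrand factor A domain collagen of peripheral nerve found around nonmyelinating glia, was at 31.4, 17.1, and 12.1 CPM in controls and at 184 to 366 CPM (median 265), 3.71 ± 0.36 higher (adjusted p = 9.91e-05). *Col8a1*, which builds hexagonal lattices in vessel walls and in the cornea, was at 62.9, 30.5, and 40.8 CPM in controls and at 207 to 1058 CPM (median 443), 3.57 ± 0.62 higher (adjusted p = 0.00229). Its partner chain *Col8a2* was at 1.85 ± 1.41 and 2.85 ± 1.01 CPM and was not called (0.55 ± 0.52). *Col20a1*, another FACIT, was higher by 3.20 ± 0.63 on the log2 scale, from 4.35 ± 0.202 to 41.8 ± 25.4 CPM.

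Of the other FACITs, *Col12a1* (1.37 ± 0.35, lost without control DRG4), *Col9a2* (1.69 ± 0.37), and *Col9a3* (1.38 ± 0.25) were higher. *Col22a1*, known from muscle and tendon junctions, was lower in fast-growing PNs (-3.38 ± 0.82, edgeR adjusted p = 0.012). It was at 1.97, 1.01, and 3.13 CPM in controls and at 0 to 0.446 CPM in fast-growing PNs, close to the floor of 3 counts, so the size of its fitted change depends on the prior count, and the call was lost without control DRG5. Of the skeletal muscle markers, 13 of 15 were also lower in fast-growing PNs, and their part was not tested. By library the 2 did not always go together. Control DRG5 was the highest control in both. Slow-growing PNs 1079 and 1202 had muscle sums of 3537 and 3724 CPM, near the 3856 CPM of control DRG3. *Col22a1* was at 0.152 and 0.306 CPM in those PNs, against 1.97 CPM in DRG3. Both multiplexins, basement membrane zone collagens that carry heparan or chondroitin sulfate chains, were higher. *Col15a1* went from 66.8 ± 26.4 to 351 ± 75.9 CPM (2.33 ± 0.29) and *Col18a1*, the source of endostatin, from 31.4 ± 10.1 to 159 ± 47.0 CPM (2.28 ± 0.31). *Col26a1* was higher by 2.17 ± 0.33, and *Col25a1*, a transmembrane collagen of neurons, by 1.20 ± 0.32, the latter not without control DRG4.

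The remaining collagen genes had no call in fast-growing PNs against controls. *Col14a1*, a FACIT that regulates fibril diameter, was at 75.1 ± 24.7 CPM in controls, against 102.8 ± 35.03 CPM in fast-growing PNs (0.40 ± 0.30 on the log2 scale). *Col23a1*, a transmembrane collagen shed from the cell surface, was at 52.6 ± 34.3 and 44.1 ± 12.8 CPM (-0.32 ± 0.36). The groups overlapped in both genes. *Col10a1*, the collagen of hypertrophic cartilage, was at 7.36 ± 5.17 and 6.19 ± 1.64 CPM, *Col19a1*, a FACIT of basement membrane zones, at 3.59 ± 0.431 and 1.98 ± 1.88 CPM, and *Col17a1*, the collagen of hemidesmosomes, at 0.871 ± 0.603 and 1.03 ± 0.430 CPM. *Col13a1*, a transmembrane collagen of the neuromuscular junction that the filter removed, was at 0.836 ± 0.387 CPM in controls against 0.165 ± 0.147 CPM in fast-growing PNs, and DESeq2's Wald test, which applies its own filter, called it lower. That test also called *Col7a1* higher.

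**Figure D4:**
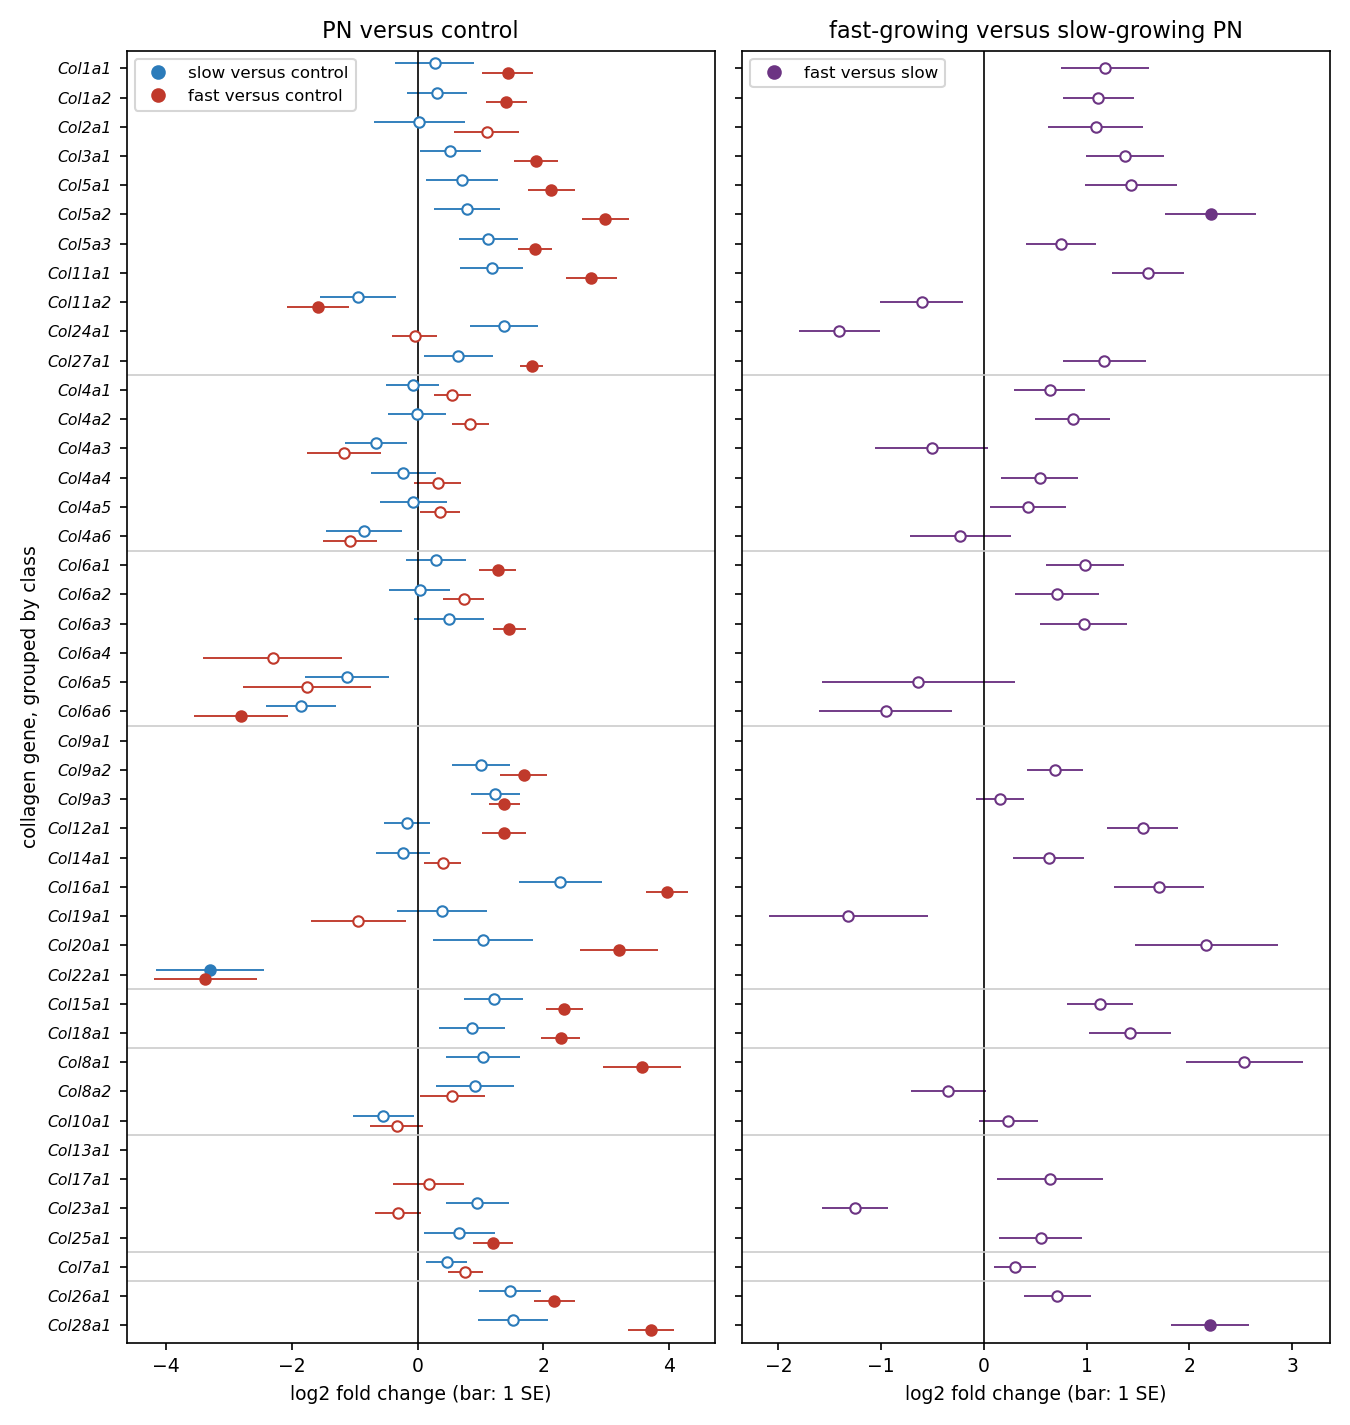
Log2 fold change (x axis, point) with 1 SE (bar) of each tested collagen gene (y axis, grouped by class) against control (left) and between growth groups (right), filled where the edgeR adjusted p was under 0.05. Against control, 24 points of fast-growing PNs are filled and 1 of slow-growing PNs, and between growth groups 2 points are filled.

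All of these calls were made against the same 3 controls. With the muscle and fat scores added as covariates, 0 of 42 collagen genes were called in fast-growing PNs against controls (6 had an unadjusted edgeR p under 0.05), and 0 of all 16037 genes tested were. The share of all genes at that unadjusted p is not given here, so the 6 cannot be set against it. Each of the 13 fat markers was lower in every fast-growing PN than in every control, so that group and fat score cannot be told apart in this comparison. Slow-growing PNs 1198A, 1202, and 1206 overlapped with controls in single fat markers, such as *Cidec* at 277 CPM in 1198A and 406 CPM in 1206 against 245 to 369 CPM, though not in their sum. Beside the collagens, 4 of 8 fibroblast markers were higher and 1 lower in fast-growing PNs than in controls. In the same comparison 3 of 8 Schwann cell markers and 2 of 6 perineurial markers were higher, and 0 of either list lower. Of the 6 pericyte and smooth muscle markers 1 was higher and 4 were lower, and all 13 fat markers were lower. The part of these cell types in the collagen values was not tested.

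In slow-growing PNs, *Col22a1* was the collagen gene that passed the test against controls. Of 40 collagen genes tested, 0 were called higher and 1, *Col22a1*, was called lower by edgeR's quasi-likelihood test, against 4.12% higher and 7.13% lower, 11.3% in all, of 15714 genes tested. At an unadjusted p under 0.05 there were 10 of the 40, against 30.3% of all genes tested, so that their share was not above this background. The median log2 fold change was 0.48 over the collagen genes and 0.04 over all genes tested. Every slow-growing PN was above every control in *Col9a2*, *Col11a1*, *Col16a1*, and *Col28a1* and below in *Col6a6* and *Col22a1*, 4 and 2 of the 40 genes. Of all genes tested, 11.6% and 12% did not overlap in these directions, so neither collagen share was above this background.

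*Col16a1* in slow-growing PNs was at 27.0, 95.0, 21.2, 14.2, and 34.0 CPM, 2.27 ± 0.66 above controls on the log2 scale (edgeR adjusted p = 0.0606). *Col28a1* was at 33.0, 137, 36.8, 42.6, and 50.1 CPM (1.51 ± 0.55, adjusted p = 0.112), and *Col11a1* at 23.8, 62.9, 20.6, 19.0, and 23.9 CPM (1.18 ± 0.50, adjusted p = 0.153). In each of the 3 genes, PN 1198A was the highest of the slow-growing PNs by a wide margin. *Col1a1* (0.27 ± 0.63), *Col1a2* (0.31 ± 0.48), and *Col3a1* (0.52 ± 0.48) did not pass the test. *Col1a1* was at 272, 369.7, 167, 58.8, and 451 CPM in slow-growing PNs and so extended below and above the controls. All 6 type IV genes had log2 fold changes between -0.85 ± 0.61 (*Col4a6*) and -0.02 ± 0.46 (*Col4a2*), and none was called. *Col15a1* was at 178, 227, 146, 51.5, and 198 CPM, above every control but for PN 1203 (1.21 ± 0.47, edgeR adjusted p = 0.126). *Col22a1* was at 0.152, 0.526, 0.306, 0, and 0 CPM, with an edgeR adjusted p of 0.0432 that was lost in 6 of 8 fits that left out a library (without DRG3, DRG4, DRG5, 1079, 1202, or 1206).

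PN 1203 was the lowest slow-growing PN in 35 of the 44 collagen genes and the highest in neuron markers, whose sum was 12801 CPM there. Without PN 1203, 8 collagen genes were called between slow-growing PNs and controls, 7 higher and 1 lower, against 5.56% and 6.99% of all genes in that fit. The higher ones were *Col5a3*, *Col8a1*, *Col9a3*, *Col15a1*, *Col16a1*, *Col24a1*, and *Col26a1*. PN 1198A was the highest slow-growing PN in 22 of the 44 genes.

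Fast-growing PNs were higher than slow-growing PNs in *Col5a2* and *Col28a1*. These 2 of 40 collagen genes passed edgeR's quasi-likelihood test at an adjusted p under 0.05, both higher, against 0.802% higher and 0.466% lower, 1.27% in all, of 15465 genes tested. At an unadjusted p under 0.05 there were 23 of the 40, against 20.4% of all genes tested. The median log2 fold change was 0.71 over the collagen genes and -0.03 over all genes tested. In 6 collagen genes every fast-growing PN was above every slow-growing PN (*Col1a2*, *Col3a1*, *Col5a2*, *Col8a1*, *Col15a1*, and *Col28a1*) and in 0 below, against 2.13% and 0.905% of all genes tested.

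*Col5a2* was at 93.9, 193, 60.1, 30.5, and 109.8 CPM in slow-growing PNs, below the 289 CPM of the lowest fast-growing PN, and differed by 2.21 ± 0.44 on the log2 scale (edgeR adjusted p = 0.0449). *Col28a1* differed by 2.20 ± 0.38 (adjusted p = 0.0403), with the highest slow-growing PN at 137 CPM and the lowest fast-growing PN at 184 CPM. *Col11a1* differed by 1.60 ± 0.35 and was not called, just missing the threshold (edgeR adjusted p = 0.0506). PN 1198A, at 62.9 CPM, overlapped there with the lowest fast-growing PN at 58.1 CPM. The 2 calls were each lost in most fits that left out 1 of the 11 libraries, *Col5a2* in 8 and *Col28a1* in 7. Without 1079, 1202, 1206, 1053, 1179, 1191, or 1216, 0 collagen genes were called, where 0.0128% to 0.0522% of all genes were. Without 1214 only *Col28a1* was called (0.424% of all genes in that fit). The count also moved upward, to 13 genes without 1198A (7.65% of all genes in that fit), 7 without 1203 (3.7%), and 5 without 1071 (2.43%), and to 14 with DESeq2's Wald test (9.18%). With the muscle and fat scores as covariates it was 0, as it was over all genes tested.

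By class, 10 of 11 fibril-forming genes had an unadjusted p under 0.05 between the growth groups, 9 with a higher level in fast-growing PNs and 1, *Col24a1*, with a lower level. Of the type IV genes 1 of 6 did, near the 20.4% of all genes, and the difference between the classes was not tested. *Col3a1* was at 480.4, 487, 339.9, 128, and 669 CPM in slow-growing PNs, all below the 709.8 CPM of the lowest fast-growing PN (1.37 ± 0.38, edgeR adjusted p = 0.0783). *Col1a1* differed by 1.18 ± 0.43 (adjusted p = 0.151), and PN 1206, at 451 CPM, overlapped with the fast-growing PNs. *Col4a1* was at 149.9, 171, 161, 51.4, and 241 CPM in slow-growing PNs, within or below the range of fast-growing PNs (0.64 ± 0.34, adjusted p = 0.319). *Col15a1* (1.13 ± 0.32, adjusted p = 0.081) did not overlap between the growth groups, and *Col18a1* (1.42 ± 0.40, adjusted p = 0.0805) did.

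Other genes had log2 differences of similar size that did not pass the test. *Col8a1* differed by 2.54 ± 0.57 (edgeR adjusted p = 0.0531), *Col20a1* by 2.17 ± 0.69 (adjusted p = 0.11), and *Col16a1* by 1.70 ± 0.44 (adjusted p = 0.0659). *Col12a1*, a FACIT of dense connective tissue, was at 63.6, 129, 54.5, 39.0, and 72.2 CPM in slow-growing and at 120.5 to 373 CPM in fast-growing PNs (1.54 ± 0.34, adjusted p = 0.0518). In the other direction, *Col23a1*, a transmembrane collagen, was at 153, 91.0, 81.5, 45.9, and 153 CPM in slow-growing PNs and at 22.7 to 57.1 CPM in fast-growing PNs (-1.25 ± 0.32, adjusted p = 0.0659). *Col24a1*, a fibril-forming collagen known from bone, was at 125, 72.0, 81.8, 25.3, and 137 CPM and at 14.1 to 45.7 CPM (-1.41 ± 0.39, adjusted p = 0.0791). Both groups overlapped in the 2 genes, through PN 1203. Fibroblast markers, of which 0 of 8 were called between the growth groups, summed to 1446 to 4466 CPM in slow-growing and 3438 to 7729 CPM in fast-growing PNs. Of 8 Schwann cell markers 1 was called, lower in fast-growing PNs, and their sum had a median of 6471 CPM in slow-growing PNs against 4007 CPM for the fast-growing ones. The 5 macrophage markers, of which 0 were called, had median sums of 80.9 and 403 CPM. The part of these cell types in the collagen differences was not tested.

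**Figure D5:**
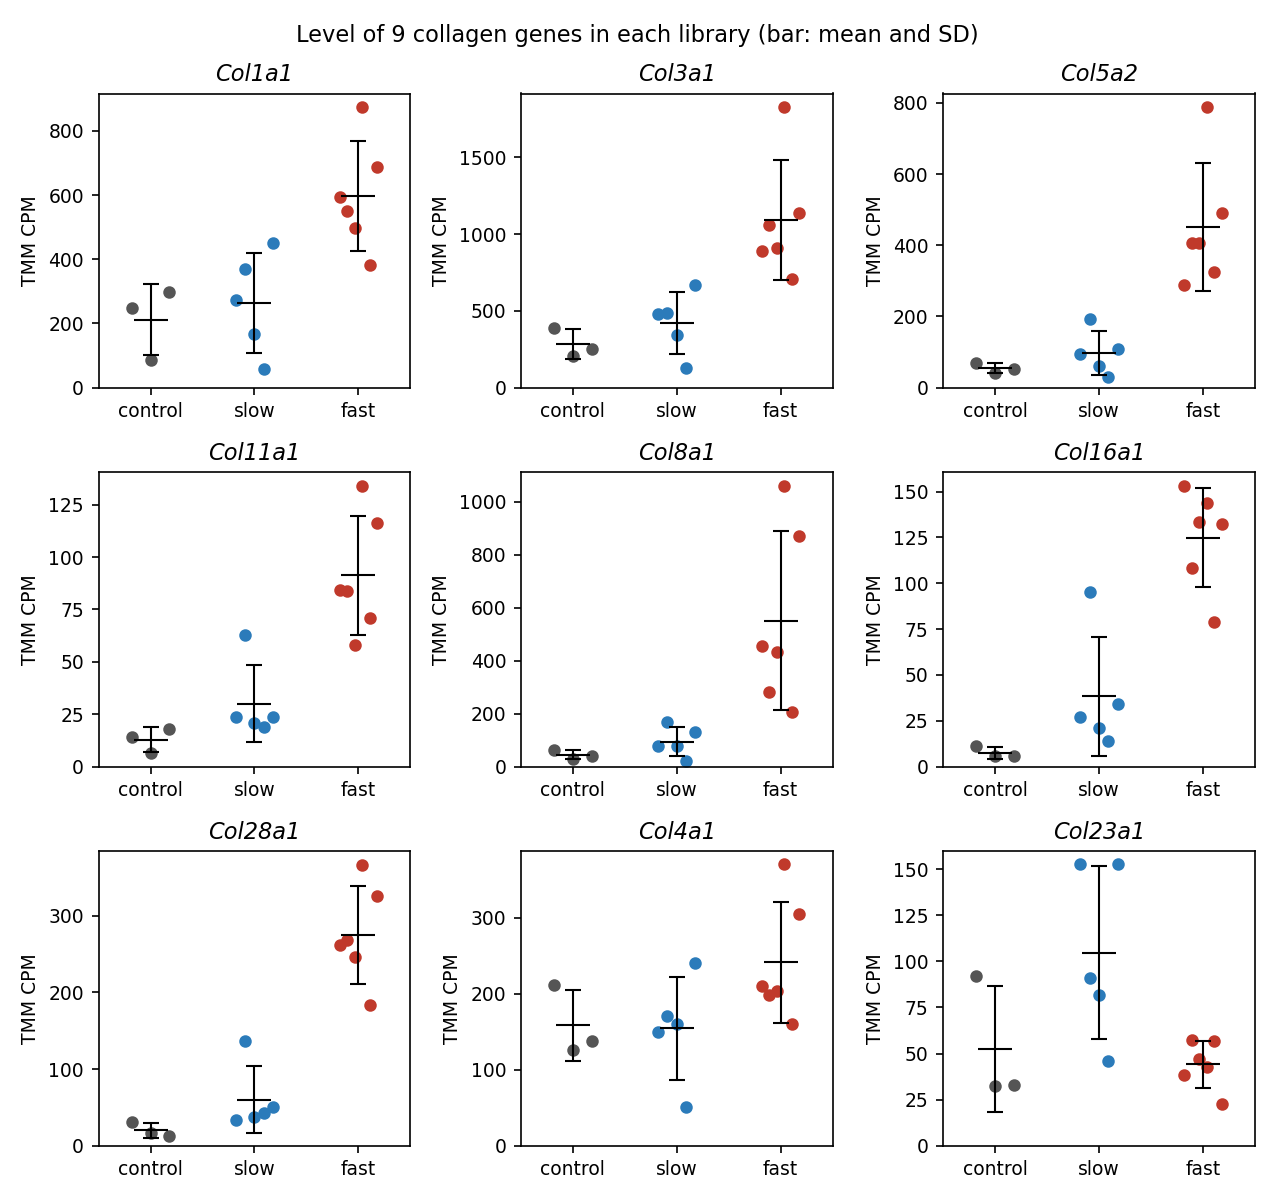
Level (y axis, TMM-normalized CPM, from 0) of 9 collagen genes in each library, by group (x axis), with a bar for the mean and SD. *Col5a2* and *Col28a1* are above 288 and 183 CPM in every fast-growing PN and at most 193 and 137 CPM elsewhere, *Col4a1* overlaps between all groups, and *Col23a1* is at most 57.1 CPM in fast-growing PNs.

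With all 11 PNs as 1 group against the 3 controls, 10 of 42 collagen genes passed edgeR's quasi-likelihood test as higher and 3 as lower (adjusted p under 0.05), against 12.9% higher and 13.4% lower, 26.3% in all, of 16283 genes tested. The higher genes were *Col5a2*, *Col5a3*, *Col9a2*, *Col9a3*, *Col11a1*, *Col15a1*, *Col16a1*, *Col18a1*, *Col26a1*, and *Col28a1*, with log2 fold changes from 1.36 ± 0.28 (*Col9a3*) to 3.46 ± 0.81 (*Col16a1*). The lower genes were *Col6a4*, *Col6a6*, and *Col22a1*, all under 8 CPM in every control. *Col1a1* (1.06 ± 0.60, adjusted p = 0.214) and *Col3a1* (1.45 ± 0.59, adjusted p = 0.0809) did not pass. *Col5a2* and *Col18a1* were each called in 4 of 14 fits that left out a library and *Col6a4* in 1 of 13. Without control DRG5, 4 collagen genes were called, without DRG4 5 genes, and without PN 1203 20 genes. Over all genes, 12.5%, 14.9%, and 29.4% were called in these fits. With the muscle and fat scores as covariates, none of the 13 was called, where 3.17% of all genes were, and *Col5a2* turned to -0.19.

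The libraries of a group differed in level across many collagen genes at once. Among fast-growing PNs, PN 1191 was the highest of the 6 in 26 of 44 genes and PN 1214 the lowest in 20. *Col3a1* was at 1831 CPM in PN 1191, and neuron markers, which summed to 2139 to 7057 CPM in the other fast-growing PNs, summed to 32.7 CPM there. Without PN 1191, 26 collagen genes were called against controls, 21 higher and 5 lower, against 14.8% and 17.4% of all genes in that fit. Among controls, DRG3 was the highest in 31 of 44 genes and DRG4 the lowest in 26.

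Genes whose products handle collagen were read out from 3 lists. Of 21 tested genes for folding and modifying collagen in the endoplasmic reticulum, 12 were higher and 0 lower in fast-growing PNs than in controls, where 14.8% and 16.7% of all genes tested were. The 3 with the lowest p were *P4ha3*, a proline hydroxylase subunit (2.79 ± 0.27, 42.5 ± 7.65 against 5.85 ± 2.44 CPM), *Fkbp14*, a prolyl isomerase (1.34 ± 0.17), and *P3h2*, a proline 3-hydroxylase (1.96 ± 0.27). Against controls, 2 of the 21 were higher in slow-growing PNs, *P4ha3* (1.94 ± 0.37) and *Fkbp14* (1.22 ± 0.23), and 1 was lower, *Ppib* (-0.57 ± 0.15), against 4.12% and 7.13% of all genes tested. Of 12 tested genes for propeptide removal and cross-linking, 4 were higher and 1 lower in fast-growing PNs against controls (14.8% and 16.7% of all genes), and 0 were called in slow-growing PNs. The higher ones included *Bmp1*, the C-propeptide protease (2.32 ± 0.39), *Adamts2*, an N-propeptide protease (1.76 ± 0.33), and *Loxl3*, a lysyl oxidase (1.45 ± 0.23). The lower one, named after its value was seen, was *Pcolce2*, an enhancer of *Bmp1* activity (-1.23 ± 0.42). Of 14 tested receptor and uptake genes, 10 were higher and 1 lower in fast-growing PNs against controls, where the same shares of all genes apply, and 0 were called in slow-growing PNs. *Itga2* (2.36 ± 0.27) and *Itga1* (1.12 ± 0.20), the alpha chains of collagen-binding integrins, and *Adgrg6*, a Schwann cell receptor that binds type IV collagen (1.45 ± 0.24), had the lowest p among those called. The lower one, also named after its value was seen, was the integrin chain *Itga11* (-1.36 ± 0.41). Between fast- and slow-growing PNs, 0 genes of the 3 lists were called (1.27% of all genes were), with median log2 fold changes of 0.55, 0.79, and 0.61 in that order, and against controls all 11 PNs had 8, 2, and 5 genes higher and 0 lower (12.9% and 13.4% of all genes).

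In the annotation (GENCODE M21, GRCm38), the genes that were called between the growth groups span chr1:45374321-45503282 on the minus strand (*Col5a2*) and chr6:7997808-8192617 on the minus strand (*Col28a1*), and *Col16a1*, with the largest log2 fold change against controls, spans chr4:130047840-130099283 on the plus strand. Some collagen genes lie in pairs. *Col3a1* and *Col5a2* lie tail to tail on chromosome 1, 24614 bp apart, and both were higher in fast-growing PNs than in controls. *Col4a3* and *Col4a4* lie head to head on chromosome 1 with starts 72 bp apart, and had log2 fold changes of -1.17 ± 0.59 and 0.32 ± 0.37 in that comparison, neither called. *Col4a5* and *Col4a6*, head to head on chromosome X with starts 1309 bp apart, had 0.35 ± 0.32 and -1.08 ± 0.43. Exons of a gene on the opposite strand overlap 10 of the 44 collagen genes in the annotation (*Col4a1* and *Col4a2* with each other, *Col4a3*, *Col5a1*, *Col6a4*, *Col6a6*, *Col9a3* with *Tcfl5*, *Col10a1*, *Col15a1*, and *Col22a1*). Exons of another gene on the same strand overlap *Col3a1*, *Col7a1*, and *Col20a1*. The strand setting of the counting is not given in the sources used here, so reads of such a pair may not be told apart.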

How the data were processed

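The members, classes, partner lists, and marker lists were chosen with earlier results of these data known. Per the labels and the methods, the authors amplified total RNA (Ovation RNA-Seq System v2), aligned reads to mm10 with TopHat2 2.0.9, and deposited raw whole-number counts per gene from featureCounts 1.5.2, with no normalization. A second deposited table of log2 values made from the same counts was not used here. *Rn45s*, a ribosomal RNA row, took 3.48% to 18.1% of the counts of a library.

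Counts were tested in R 4.3.3 with edgeR 4.0.16: filterByExpr on the groups compared, TMM factors, and glmQLFTest, with only the libraries of a comparison in the fit and Benjamini-Hochberg adjustment over all genes tested. A gene was called at an adjusted p under 0.05. SE is that of the log2 fold change. Errors of levels are SDs. CPM values use TMM factors over all 14 libraries. Class shares use raw counts. Cell type scores were the mean log2(CPM + 1) of the marker lists. Named genes were every collagen gene called in any comparison, the highest of each class, the 3 lowest p between growth groups, and at most 3 called genes of each partner list per comparison, and other genes were named after their values were seen. No source shows that libraries within a group are separate animals beyond mouse numbers, so p-values measure the spread between these libraries. No pair of libraries agreed within sampling noise (lowest chi-square per degree of freedom 23.5). Positions came from GENCODE M21 (GRCm38), promoters from RefSeq (GRCm38.p6). DESeq2 1.42.0 and limma 3.58.1 served as alternatives. The fits were also run on counts simulated from edgeR's own model with known changes. Such counts hold no differences in muscle or fat content between libraries, so that run does not measure how stable the calls are here. Floors cover counting error only.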

Additional observations from a re-analysis of the deposited data

Results flagged for a closer look

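Single libraries stood apart from the rest of their group in 10 of 90 sets of values examined (each collagen gene, and their summed share, in slow- and in fast-growing PNs). The rule flags about 1 in 20 sets by chance, but these sets are not independent, since many collagen genes moved together across libraries. Every flag was a highest library, on the unlogged CPM scale, so the 10 are not read as an excess. Among slow-growing PNs, 1198A was the highest library at 62.9 CPM of *Col11a1*, 95.0 CPM of *Col16a1*, 27.4 CPM of *Col20a1*, and 137 CPM of *Col28a1*. In the same group, 1203 was apart at 14.3 CPM of *Col19a1*, a FACIT. Among fast-growing PNs, 1179 was apart at 1.83 CPM of *Col6a4*, 1191 at 373 CPM of *Col12a1*, at 42.0 CPM of *Col6a5*, and at 14.9 CPM of *Col4a3*, and 1216 at 11.3 CPM of *Col25a1*. The growth groups differed by the test of the difference itself in *Col5a2* (log2 fold change 2.21, every fast-growing PN above every slow-growing PN) and *Col28a1* (2.20, likewise).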

How the results depend on the processing

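The number of collagen genes called in fast-growing PNs against controls, 24, stayed between 20 and 27 under DESeq2 size factors, DESeq2's Wald test, limma-voom, no filter, removal of the length and GC trend, 1 fit of 3 groups, and each library left out. Over all genes tested, 20.4% to 32.1% were called in those fits. With muscle and fat scores as covariates, the number of collagen genes called in this comparison was 0 (6 at an unadjusted edgeR p under 0.05). In the same setting it was 1 of 42 for all PNs (*Col24a1*, 5 unadjusted), 0 for slow-growing PNs (4 unadjusted), and 0 between growth groups (23 unadjusted). The shares of all genes at an unadjusted p under 0.05 in that setting are not given here. The unadjusted counts therefore have no background to be read against. Over all genes tested, that setting called 3.17% for all PNs and 0 in the other 3 comparisons. There, *Col5a2* turned to -0.19 for all PNs and *Col25a1* to -0.35 for fast-growing PNs against controls. For all PNs, leaving out a library gave 4 to 20 calls, where 12.5% to 29.4% of all genes were called. For slow-growing PNs, the 1 call became 9 with DESeq2's Wald test, 7 with 1 fit of 3 groups, and 0 to 8 with a library left out (0 without DRG4, DRG5, 1079, 1202, or 1206, 2 without 1198A, and 8 without 1203). Without a filter, or without DRG3, the 1 call was *Col6a4* instead of *Col22a1*. Between growth groups, the 2 calls became 14 with DESeq2's Wald test, 5 with 1 fit of 3 groups, 1 with limma-voom, and 0 to 13 with a library left out (13 without 1198A, 7 without 1203, 5 without 1071, 1 without 1214, and 0 without any other library). Over all genes, calls between growth groups ranged from 0.0128% to 7.65% with a library left out. They were 9.18% with DESeq2's Wald test, 2.6% with 1 fit of 3 groups, and 0.22% with limma-voom. Those of slow-growing PNs against controls ranged from 3.74% to 15.3% with a library left out. They were 19.8% with DESeq2's Wald test and 20.1% with 1 fit of 3 groups. The cause of these changes was not tested. The mean collagen share of each group moved by less than its SD without *Rn45s* in the total and without *Col1a2*. Leaving out 1 library cannot move a group mean by more than the SD of the group, so this was not used as a measure of stability. No paired analysis was possible because the groups share no replicate numbers. Depth limits *Col6a4*, *Col9a1*, *Col13a1*, and *Col22a1*, each at 0 counts in 3 to 5 libraries.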
